A study of Homo sapiens with 8 samples.

Results

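The 4 annotated vault RNA genes, VTRNA1-1, VTRNA1-2, VTRNA1-3 and VTRNA2-1, were read out in miCLIP libraries of the RNA methyltransferases NSun3 and NSun6. They were taken by name, with 50 nt added on each side and on the strand of the gene only, and stand among 31141 genes and read clusters that held at least 1 read in any library. miCLIP is a crosslinking and immunoprecipitation assay in which the enzyme remains attached to its target cytosine, so that reverse transcription halts there and the first base of a read marks the place. The labels give 3 libraries with myc-tagged NSun3 and 3 with myc-tagged NSun6, each from the human embryonic kidney line HEK293, an established cell line, transfected and collected after 24 h, with RNA pulled down by an anti-myc antibody. The methods describe a NSun3 mutant that cannot release its RNA, and the mutation state of the NSun6 construct is not given in the sources used here. The enzymes were expressed from transfected constructs, no library without an enzyme was used here, and nothing in the labels says that replicates came from separate cultures, so the p-values measure only the spread between these samples. A further pair of samples of poly(A) RNA from the same line was read by bisulfite sequencing, in which 5-methylcytosine stays a cytosine, and 1 table of values was given, with no word on whether it pools them.

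Vault RNAs are short non-coding RNAs made by RNA polymerase III, named after the vault, a barrel-shaped ribonucleoprotein particle of the cytoplasm that holds a small part of them. They carry internal promoter elements like those of tRNA genes, fold back so that their ends pair, and are known substrates of the cytosine methyltransferase NSUN2, with methylation linked to their processing into smaller RNAs. NSun6 is known for methylating a cytosine near the 3′ end of a few cytoplasmic tRNAs, and NSun3 for the anticodon loop of a mitochondrial tRNA. VTRNA2-1, also called nc886, is a related RNA that is not a vault component and binds the kinase PKR.

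The whole annotated genes are shown so that the read starts described below can be placed. The 5 bases in capitals near their 3′ ends are those aligned with CTCCA of VTRNA1-3. They were chosen with earlier results of these data known, and whether they set the number of reads was not tested. The sequences are those of the reference genome GRCh37 (hg19), 5′ to 3′ on the strand of the gene, with T for U. VTRNA1-1 (ENSG00000199990.1) is at chr5:140090860-140090958, VTRNA1-2 (ENSG00000202111.1) at chr5:140098510-140098598 and VTRNA1-3 (ENSG00000202515.1) at chr5:140105743-140105831, all on the plus strand. VTRNA2-1 (ENSG00000270123.4_6) is at chr5:135416159-135416286 on the minus strand.
VTRNA1-1: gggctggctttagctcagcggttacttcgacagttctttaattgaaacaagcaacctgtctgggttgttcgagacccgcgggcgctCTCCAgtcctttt
VTRNA1-2: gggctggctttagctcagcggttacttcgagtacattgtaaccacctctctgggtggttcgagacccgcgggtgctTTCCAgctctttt
VTRNA1-3: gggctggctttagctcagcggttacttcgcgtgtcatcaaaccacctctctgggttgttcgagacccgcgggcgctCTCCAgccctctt
VTRNA2-1: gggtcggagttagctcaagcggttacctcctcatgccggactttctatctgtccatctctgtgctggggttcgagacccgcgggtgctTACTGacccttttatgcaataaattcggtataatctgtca

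The genes are 99, 89, 89 and 128 nt long in that order. Over the columns of their alignment VTRNA1-3 was 86.5% identical to VTRNA1-2, 79.8% to VTRNA1-1 and 48.4% to VTRNA2-1. VTRNA1-1 and VTRNA1-3 hold the same 5 bases at the aligned place. Counting from base 1 at the annotated 5′ end of VTRNA1-3, VTRNA1-2 differs there by C77T, and VTRNA2-1 differs by C77T, T78A, C80T and A81G. The letters CTCCA occur on the gene strand of 626 of 4798 annotated nuclear genes of 89 to 128 nt, or 13.0%, and on either strand of 19.6%. In the minimum free energy folds predicted from these sequences (-35.2, -34.9, -34.9 and -36.0 kcal/mol), the first and second of the 5 bases were unpaired in all 4 genes, and the next 3 paired with bases 7, 6 and 5.

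The NSun3 libraries held 47352 to 138921 reads and the NSun6 libraries 305392 to 467586. A single read was therefore worth 7.20 to 21.1 RPM (the count as a rate per 1000000 reads of the library) for NSun3 and 2.14 to 3.27 RPM for NSun6, and all intervals and floors given here cover counting error only. As a check of the labels, reads in exons of the transfected genes were counted. NSUN6 exons held 323, 428 and 323 reads in NSun6 replicates 1, 2 and 3 and none in the NSun3 libraries. For NSUN3 the exon counts were 32 in NSun3 replicate 1 and 19 in replicate 2, and 0, 0 and 8 with NSun6. The library labelled NSun3 replicate 3 had no read there. The main comparisons are therefore also given without that library.

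Only reads with a single best place in the genome were kept. Among these, VTRNA1-3 took more NSun6 reads than any other gene or cluster of the series. VTRNA1-1 took fewer, VTRNA1-2 a few, and VTRNA2-1 none. Of the 4 genes, VTRNA1-3 alone had NSun3 reads. Its window held 42602, 45363 and 34023 reads in NSun6 replicates 1, 2 and 3, and 274, 121 and 79 in NSun3 replicates 1, 2 and 3. Scaled to the library this was 131514, 97015 and 111408 RPM with NSun6, against 1972, 2282 and 1668 RPM with NSun3. All 3 NSun6 libraries lay above all 3 NSun3 libraries, and the values of an enzyme stayed within a narrow range.

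The NSun6 mean of VTRNA1-3 was 113312 ± 17328 RPM (SD, n = 3), or 11.3% ± 1.73 of all reads, and the NSun3 mean was 1974 ± 307 RPM (SD, n = 3). The ratio of these means was 57.4. An exact two-sided permutation test gave p = 0.1, the smallest that 3 libraries against 3 can give. In the edgeR quasi-likelihood test over all 2024 genes and clusters, scaled by TMM, the log2 fold change of VTRNA1-3 (NSun6 minus NSun3) was 4.16 ± 0.42 (SE) with a Benjamini-Hochberg adjusted p of 0.000192, and 4.83 with adjusted p = 0.00939 without the library labelled NSun3 replicate 3. Leaving out each library in turn gave 4.41 to 5.89, the highest without NSun3 replicate 1. The size rested on the scaling, since the log2 fold change was 6.32 in edgeR with RLE size factors and in DESeq2, and the call held in each case.

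Calls in this direction were the rule in these libraries. Of the genes and clusters tested, 75.6% were called higher in NSun6, and of the 4 vault RNA genes 2 were tested and both were called. The median log2 fold change of the genes tested was 7.05, above that of VTRNA1-3, and 1303 of them had no NSun3 read at all. Among the 721 with an NSun3 read the median was 0.37, below that of VTRNA1-3. The order to the median of all genes turned in DESeq2 (median 5.67, VTRNA1-3 6.32) and without a filter on low counts (median 2.01, VTRNA1-3 6.26). By number of reads, which is no level per length, VTRNA1-3 ranked 1 in each NSun6 library and 45 to 49 in the NSun3 libraries. This rank covers reads with a single best place, so RNAs of near-identical gene copies, such as many tRNAs, are not fully counted in it. The feature with the next highest NSun6 mean was POLG-DT, annotated as a non-coding gene, with 34982 RPM. Whether its reads came from that gene was not tested.

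VTRNA1-1 held 513, 826 and 300 reads in NSun6 replicates 1, 2 and 3 and none in the NSun3 libraries. This came to 1584, 1767 and 982 RPM with NSun6, a mean of 1444 ± 410 RPM (SD, n = 3). The enzymes did not overlap. With the NSun3 libraries set to their floor of 3 reads per library (47.2 RPM on average), VTRNA1-1 was at least 30.6-fold higher in NSun6 by RPM. This and the later folds over the floor are ratios of RPM, and as limits they hold for that scaling only, not for TMM. The fitted log2 fold change of edgeR was 11.14 ± 0.99 (SE, adjusted p = 0.000327), a value that depends on the prior count because the NSun3 side is 0, and it was 11.44 with adjusted p = 0.00177 without the library labelled NSun3 replicate 3.

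VTRNA1-2 held 5, 14 and 21 NSun6 reads, a mean of 38.0 ± 27.6 RPM (SD, n = 3), and no NSun3 read. All 3 NSun6 libraries lay above the NSun3 libraries (exact permutation p = 0.1, the smallest possible), but the NSun6 mean lies under the NSun3 floor of 47.2 RPM, so no fold is given. It did not pass the filter on low counts, and without that filter edgeR called it higher in NSun6. VTRNA2-1 had 0 reads in all 6 libraries, which allows up to 8.50 RPM of reads with a single best place on average in the NSun6 libraries and 47.2 RPM in the NSun3 libraries. Little RNA of the gene, little enzyme bound to it and reads dropped for having several places cannot be told apart in a low count here.

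**Figure D1:**
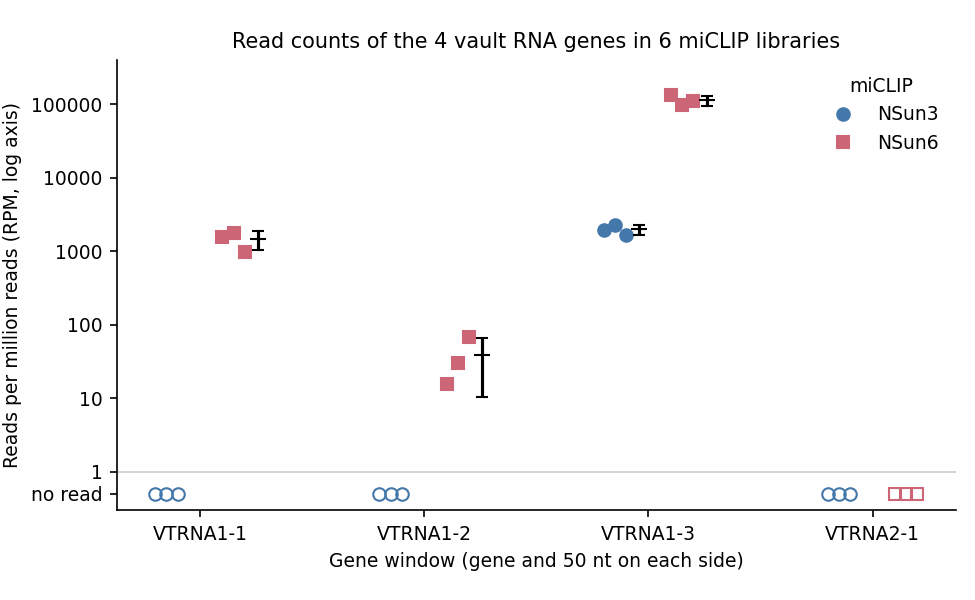
RPM (log axis) of the 4 vault RNA gene windows, with 1 point per library, NSun3 as circles and NSun6 as squares, open symbols for libraries with no read, and bars for the mean ± SD of 3 libraries. VTRNA1-3 lies at 97015 to 131514 RPM with NSun6 and at 1668 to 2282 RPM with NSun3, and the other genes have no NSun3 read.

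The order of the vault RNAs within the NSun6 libraries was the same in all 3. VTRNA1-3 made up 98.8%, 98.2% and 99.1% of the vault RNA reads of replicates 1, 2 and 3, VTRNA1-1 1.19%, 1.79% and 0.874%, and VTRNA1-2 0.0116%, 0.0303% and 0.0611%. Per nt of window VTRNA1-3 held 87.4, 57.8 and 119 times the reads of VTRNA1-1. In NSun3 replicates 1, 2 and 3, 0 of 274, 0 of 121 and 0 of 79 vault RNA reads lay in VTRNA1-1, which allows shares of up to 1.09%, 2.48% and 3.80%. Taken singly, these limits reach over the 0.874% of NSun6 replicate 3. With the NSun3 libraries summed, 0 of 474 reads allows up to 0.633% (upper end of the exact binomial interval 0.775%), under the share of each NSun6 library, but this sum covers counting error and not the spread between libraries.

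Along VTRNA1-3 the NSun6 reads began at 1 base more than at any other. Base 78, position 140105820, is the T that follows the first C of CTCCA, and it held 25282, 18666 and 17828 first bases of reads in NSun6 replicates 1, 2 and 3. These were 59.3%, 41.1% and 52.4% of the reads of the window, a mean of 51.0% ± 9.18 (SD, n = 3). The bases on either side followed far behind, with 6.43% ± 0.30 at base 77 and 5.05% ± 0.50 at base 79. The profile was alike in the 3 NSun6 libraries: over the 189 bases of the window, which are not independent and share depth and sequence, Pearson's r of the counts was 0.984 to 0.997 and Spearman's rho 0.920 to 0.949.

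The NSun3 reads of VTRNA1-3 used few bases and differed between libraries. Base 78 held 121, 1 and 73 reads in NSun3 replicates 1, 2 and 3. This was 44.2%, 0.826% and 92.4% of their VTRNA1-3 reads (exact binomial intervals 38.2% to 50.3%, 0.0209% to 4.52% and 84.2% to 97.2%), a spread far beyond counting error. The mean of 45.8% ± 45.8 (SD, n = 3) did not differ from that of NSun6 beyond the spread (difference 5.17 percentage points, exact two-sided permutation p = 0.8, smallest possible 0.1). The direction turned without NSun3 replicate 2, where NSun6 was lower by a difference of -17.3 percentage points (exact permutation p = 0.6), and the difference was 28.5 without the library labelled NSun3 replicate 3 (exact permutation p = 0.4). Reads lay at 6, 3 and 3 bases of the window in the NSun3 libraries, against 85, 113 and 91 in the NSun6 libraries, which hold far more reads.

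**Figure D2:**
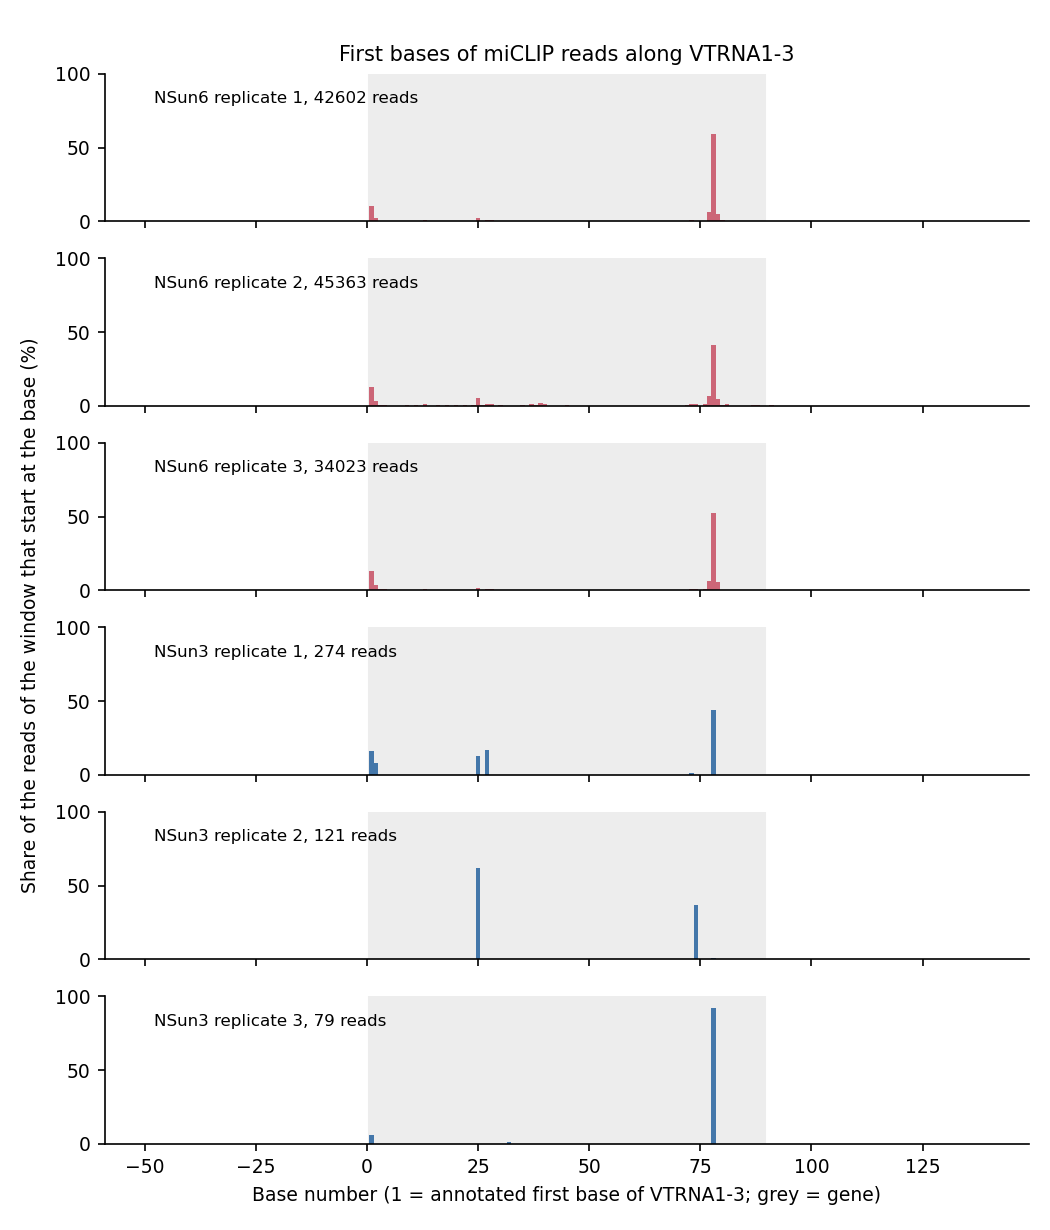
Share of the VTRNA1-3 reads of a library that start at each base (vertical axis, percent) by base number (horizontal axis, base 1 being the annotated first base, grey the gene), 1 panel per library. Base 78 leads in the 3 NSun6 libraries with 41.1% to 59.3%, and among the NSun3 libraries it holds 44.2%, 0.826% and 92.4%.

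A second group of VTRNA1-3 reads began at the 5′ end of the gene. Base 1 (140105743) held 4419, 5872 and 4437 reads in NSun6 replicates 1, 2 and 3, and 44, 0 and 5 in NSun3 replicates 1, 2 and 3. Bases -1 to 2, numbered with a base 0 before base 1, held 15.2% ± 2.35 of NSun6 reads and 10.3% ± 12.7 of NSun3 reads (SD, n = 3, exact permutation p = 0.6), the latter being 12.2% without the library labelled NSun3 replicate 3. Here the transcript itself ends, so a read that starts at base 1 has run to the end of the annotated RNA. The nearest cytosine to base 1 lies 2 nt before the gene at 140105741, in sequence outside the annotated RNA, and by the rule of the methods it receives these reads.

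A smaller group began around base 25 (140105767), a C in the stretch that all 3 VTRNA1 genes share. Bases 25 to 28 held 4.04%, 8.30% and 3.67% of the NSun6 reads in replicates 1, 2 and 3. With NSun3 the shares were 29.9%, 62.0% and 0%. The NSun3 libraries lay on both sides of the NSun6 libraries (means 30.6% ± 31.0 and 5.34% ± 2.58, SD, n = 3, exact permutation p = 0.4). Without the library labelled NSun3 replicate 3, which held the 0%, the NSun3 mean was 46.0% (exact permutation p = 0.2, the smallest that 3 libraries against 2 allow). In NSun3 replicate 2, 75 of 121 reads began at base 25 and 45 at base 74. These stretches were picked after the read starts had been seen.

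**Figure D3:**
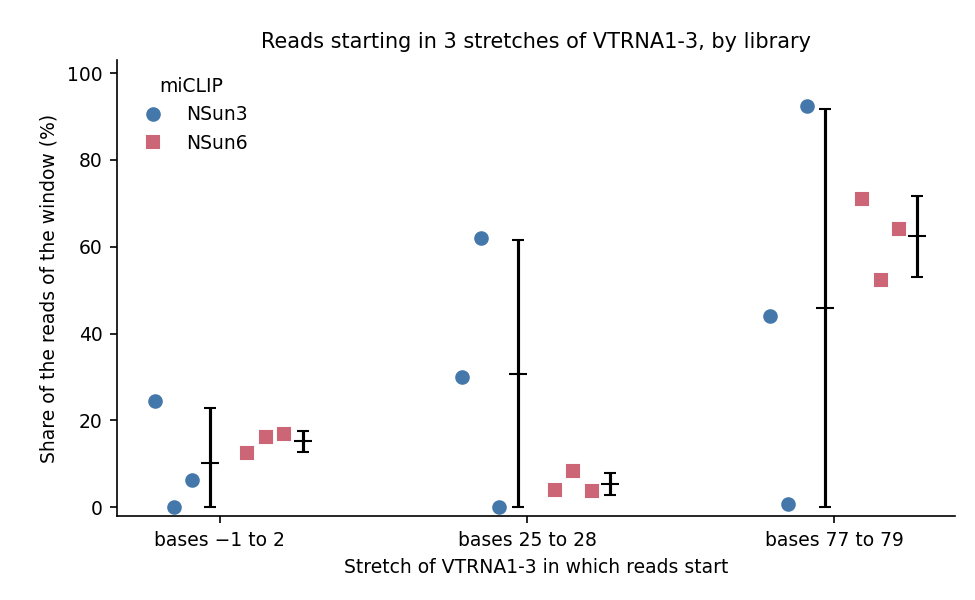
Share of the VTRNA1-3 reads (percent) that start at bases -1 to 2, 25 to 28 and 77 to 79, with 1 point per library, NSun3 as circles and NSun6 as squares, and bars for the mean ± SD of 3 libraries, drawn no lower than 0. The NSun6 libraries lie close together in each stretch, and the NSun3 libraries spread from 0.826% to 92.4% at bases 77 to 79.

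At the homologous base VTRNA1-1 also had its highest count. Base 88 (140090947), which follows the first C of its CTCCA, held 145, 159 and 73 NSun6 reads, or 28.3%, 19.2% and 24.3% of the VTRNA1-1 reads of replicates 1, 2 and 3 (exact binomial intervals 24.4% to 32.4%, 16.6% to 22.1% and 19.6% to 29.6%). This share was lower than that of VTRNA1-3 in each of the 3 libraries, by 27.0 ± 4.68 percentage points (SD of the difference, n = 3). An exact paired permutation test gave p = 0.25, the smallest that 3 pairs allow. VTRNA1-1 had further read starts that VTRNA1-3 did not lead with, among them base 50 with 10.8% ± 3.10 and base 37 with 9.34% ± 1.74 of reads (SD, n = 3). Its base 0 held 8.99% ± 1.93 of reads. A group at the 5′ end was common to both genes, with 9.44% ± 2.20 of VTRNA1-1 and 15.2% ± 2.35 of VTRNA1-3 NSun6 reads at bases -1 to 2. A second CTCCA lies after VTRNA1-1, from 140090992 in the downstream flank, and no read of any library began within 2 nt of its first C.

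**Figure D4:**
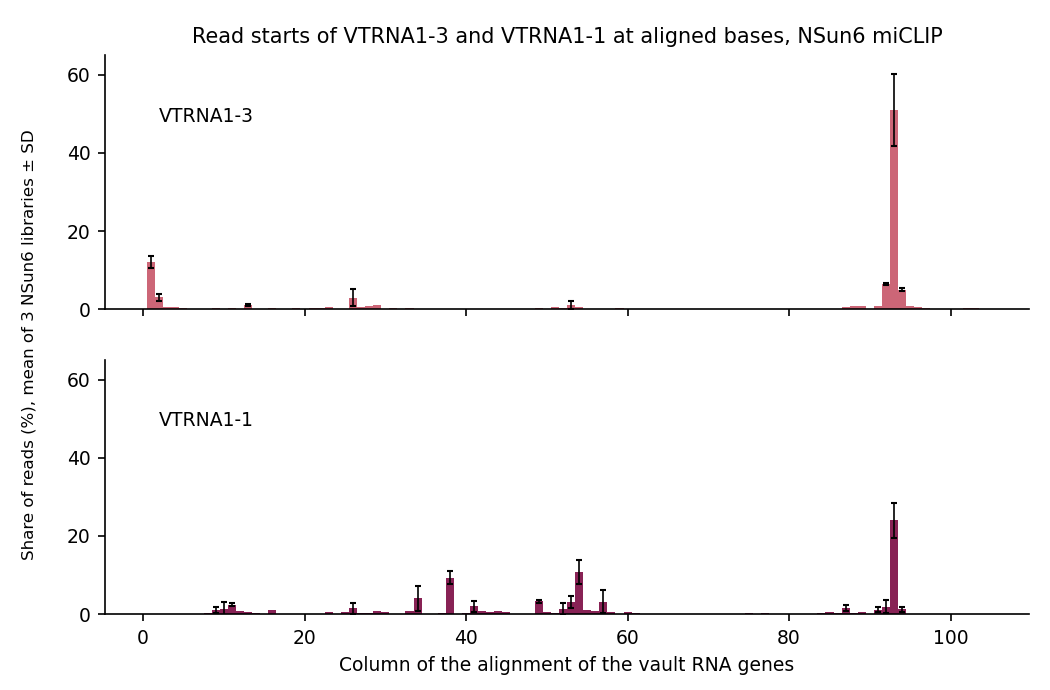
Mean share of reads that start at each aligned base (percent, bars, with SD over 3 NSun6 libraries for bases over 1%) for VTRNA1-3 (top) and VTRNA1-1 (bottom), by column of their alignment. The highest bar of both genes stands in the same column, at 51.0% for VTRNA1-3 and 23.9% for VTRNA1-1.

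The reads of the other genes were too few for a profile. In VTRNA1-2 the base aligned with base 78 of VTRNA1-3 (140098587) held 0, 0 and 1 reads of its 5, 14 and 21 NSun6 reads. Most VTRNA1-2 reads over the 3 libraries began at base 26 (140098535), with 2, 6 and 18 reads, or 40.0%, 42.9% and 85.7% (exact binomial intervals 5.27% to 85.3%, 17.7% to 71.1% and 63.7% to 97.0%). The intervals of the 3 libraries overlap in every pair, and in NSun6 replicate 1 base 91 in the downstream flank held 2 reads as well. VTRNA2-1 has no read from which a share could be taken.

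How the files were made bears on these profiles. Reads with more than 1 best place in the genome were dropped, and the vault RNAs share long stretches. At base 78 of VTRNA1-3, base 88 of VTRNA1-1 and base 26 of VTRNA1-2 the genome sequence has no second exact match from 18 nt on, the shortest read kept. From base 1 a read needed 30 nt in VTRNA1-3, 33 nt in VTRNA1-1, 31 nt in VTRNA1-2 and 49 nt in VTRNA2-1 to have a single exact place. Over 18 nt were needed from 66 of the 128 bases of VTRNA2-1, from 42 of 99 in VTRNA1-1, 30 of 89 in VTRNA1-2 and 32 of 89 in VTRNA1-3. In VTRNA1-3 bases 49 to 53 had no read in any library, and reads from there needed 31 to 35 nt. Elsewhere bases without NSun6 reads were not only such bases, since over 18 nt were needed at 20 of 34 of them in VTRNA1-1, 29 of 80 in VTRNA1-2 and 66 of 128 in VTRNA2-1. In VTRNA1-2 the count at base 1 was 0 in all libraries, and in VTRNA1-1 it was 0 as well, while base 0 of VTRNA1-1, where 18 nt suffice, held 55, 57 and 28 NSun6 reads. What reads of other lengths would have added was not tested.

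Reads of at least 18 nt that begin at base 78 of VTRNA1-3 or base 88 of VTRNA1-1 reach at least 6 nt past the annotated 3′ end of the gene, since only 11 nt of gene follow. Counting reads from every start for which 18 nt pass the annotated end by any length, the share was 75.3%, 60.8% and 68.8% of VTRNA1-3 reads with NSun6 (replicates 1, 2 and 3) and 45.6%, 38.0% and 92.4% with NSun3. In NSun3 replicate 2 these were 45 reads from base 74 and 1 from base 78. The counts per base may also be bounded by the molecular barcode, which has 6 random nt and so 4096 forms for each distinct read sequence. The counts at base 78 therefore need at least 7, 5 and 5 distinct read sequences (lengths or variants) in NSun6 replicates 1, 2 and 3, and base 1 needs at least 2 in each, while no NSun3 count of VTRNA1-3 comes near 4096.

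Most NSun6 reads of VTRNA1-3 began right after a cytosine. The base before the read was a C for 64.2%, 51.2% and 57.9% of reads in NSun6 replicates 1, 2 and 3, where 33.7% of the bases of the gene follow a C. For VTRNA1-1 these shares were 61.4%, 48.5% and 53.7%, against 27.3% of its bases. In NSun3 they were 44.2%, 38.0% and 92.4% for VTRNA1-3. Base 78 alone, with 59.3%, 41.1% and 52.4% of all reads, makes up most of these reads in the NSun6 libraries of VTRNA1-3. The excess over 33.7% rests on it, and among reads that began elsewhere the share after a C lay under 33.7% in each NSun6 library.

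By the rule of the methods a read belongs to the nearest cytosine within 2 nt, and a site is of high confidence where 2 or more of the 3 libraries of an enzyme exceed 50 RPM. The methods name no rule for ties, and here the 5′ cytosine of 2 equally near ones took the read. Of the 217 cytosines in the 4 windows, 33 met it, 27 in VTRNA1-3 and 6 in VTRNA1-1. All 33 met it with NSun6, and 3 met it with NSun3 as well, at 140105741, 140105767 and 140105819 of VTRNA1-3. Without the library labelled NSun3 replicate 3 the NSun3 count falls from 3 to 1, the site at 140105767, with both remaining libraries having to pass. VTRNA1-2 and VTRNA2-1 had none. The share of all cytosines of the series that meet the rule was not counted, so neither the 33 nor the 3 is set against it. The sites at 140105741 and 140105833 of VTRNA1-3 and at 140090859 of VTRNA1-1 lie outside the annotated RNA.

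Of the 29 vault RNA cytosines that could be tested, 28 were called higher in NSun6 and none lower, where 70.6% of all 1737 cytosines tested were called in that direction. The log2 fold changes of these 29 ran from 2.71 to 13.31 with a median of 8.92, beside a median of 7.19 over all cytosines tested. Without the library labelled NSun3 replicate 3, 35 of 35 tested were called, in a fit whose share of calls over all cytosines is not given. Of the 33 sites, 26 had no NSun3 read, so that their fitted values depend on the prior count. Such sites could pass the filter on low counts only by their NSun6 reads, so a call lower in NSun6 was not open to them. Without that filter, 39 of 79 vault RNA cytosines were called higher in NSun6. Cytosines of the same gene also lie on the same RNA, so the 28 calls are not independent results.

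The leading site, the first C of CTCCA in VTRNA1-3 at 140105819, held 27939, 21743 and 19963 reads with NSun6 and 121, 1 and 73 with NSun3 (replicates 1, 2 and 3). Its means were 66039 ± 19883 RPM with NSun6 and 811 ± 763 RPM with NSun3 (SD, n = 3). The log2 fold change was 6.18 ± 1.39 (edgeR, SE, adjusted p = 0.00157), 5.88 to 8.32 over the alternatives, and 7.15 with adjusted p = 0.0124 without the library labelled NSun3 replicate 3. The C at 140105821, the next C of the 5 bases, held 2259, 2028 and 1828 NSun6 reads and no NSun3 read. By RPM it was at least 122-fold higher with the NSun3 floor. All NSun6 libraries lay above all NSun3 libraries at both sites. Base 78 lies between these 2 sites and equally near to both, so the tie rule gave its reads to 140105819, and the counts of both sites rest on that choice.

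The 3 smallest fold changes were at bases 25, 73 and 28, where a single NSun3 library held 75, 45 and 46 reads. At 140105767 (base 25) NSun6 held 1204, 3009 and 795 reads and NSun3 36, 75 and 0. The log2 fold change was 2.71 ± 1.17 (edgeR, SE, adjusted p = 0.0493). The call was lost in 8 of 13 alternatives (log2 fold change 2.35 to 4.90, adjusted p up to 0.155), the highest without NSun3 replicate 2. At 140105815 (base 73) NSun6 held 655, 1393 and 647 reads and NSun3 4, 45 and 0, with a log2 fold change of 2.86 ± 1.25 and adjusted p = 0.0502. It was the 1 site tested that was not called in the main fit, and it was called in 6 of 13 alternatives. Without NSun3 replicate 2, which held the 45 reads, its log2 fold change was 7.31 (edgeR, adjusted p = 0.00848). At 140105770 (base 28) the log2 fold change was 3.79 ± 1.20 (edgeR, SE, adjusted p = 0.0119). The call was lost in 4 of 13 alternatives (log2 fold change 3.47 to 4.70), with adjusted p = 0.124 without NSun3 replicate 2. Without NSun3 replicate 1, the only NSun3 library with reads there, the log2 fold change was 12.12 (adjusted p = 0.000646).

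In VTRNA1-1 the C at 140090946, the first of its CTCCA, held 164, 173 and 74 NSun6 reads and no NSun3 read. Its NSun6 mean was 373 ± 132 RPM (SD, n = 3), by RPM at least 7.90-fold over the NSun3 floor (edgeR log2 fold change 9.32 ± 1.16, SE, adjusted p = 0.000173). It led the 6 sites of the gene, followed by 140090907 (base 48) with 237 ± 115 RPM and 140090895 (base 36) with 136 ± 24.5 RPM. The reads from base 88 fell to 140090946 by the tie rule, since the next C is as near. The site at 140090859 lies 1 nt before the annotated gene, as the 5′ site of VTRNA1-3 does by 2 nt. The remaining sites, at bases 31 and 52, did not pass the filter of the test.

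**Figure D5:**
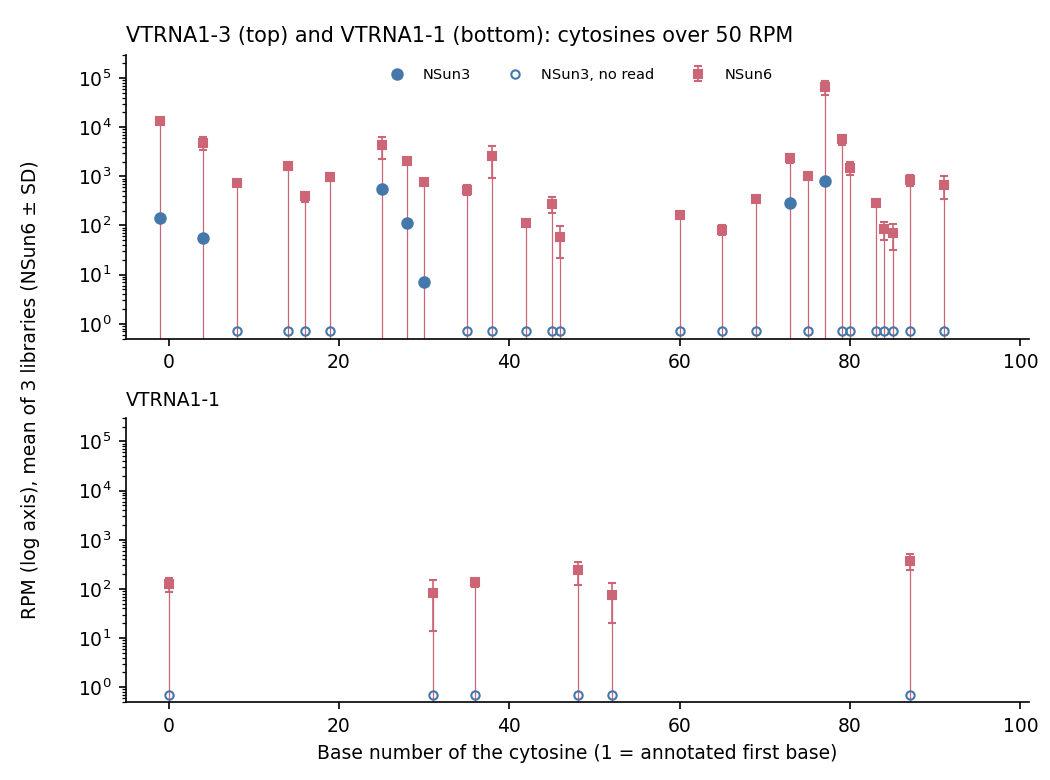
RPM (log axis) of the 33 high-confidence cytosines by base number in VTRNA1-3 (top) and VTRNA1-1 (bottom), with squares for the mean of 3 NSun6 libraries ± SD, filled circles for the NSun3 mean and open circles for sites with no NSun3 read. The site at base 77 of VTRNA1-3 stands at 66039 RPM with NSun6 and 811 RPM with NSun3, and every VTRNA1-1 site has no NSun3 read.

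The bisulfite table bore little on the vault RNAs. It came from poly(A) RNA, and vault RNAs carry no poly(A) tail. It listed 42 of the 217 cytosines, of which 20 lay within a gene, and none in the windows of VTRNA1-1 or VTRNA2-1. Coverage within the genes reached at most 4 reads. The first C of CTCCA in VTRNA1-3, at 140105819, had 3 reads and none methylated, which leaves every level up to 70.8% possible (exact binomial 95% interval). Of the 3 cytosines with over 5 reads, all in the flank downstream of VTRNA1-3 (7 to 8 reads), none had a methylated read. Methylation of the vault RNA genes could therefore not be read at this depth.

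Apart from SRSF2, a list of genes drawn up for proteins and RNAs that act with vault RNAs gave few reads. The list held 11 genes: MVP, PARP4 and TEP1 of the vault particle, SSB (La, which binds the 3′ ends of RNA polymerase III transcripts), the methyltransferase NSUN2, the splicing factor SRSF2, DICER1, the autophagy receptor SQSTM1, EIF2AK2 (PKR), YBX1, and the U8 small nucleolar RNA SNORD118, which is no known partner and stood on the list as written. Reads were found in 9, MVP and YBX1 having none, and 1 was tested and called, too few to set against the 75.6% of all genes and clusters called. SRSF2, which binds a vault RNA, held 275, 565 and 449 NSun6 reads (849, 1208 and 1470 RPM) and no NSun3 read. By RPM it was at least 24.9-fold higher in NSun6 over the NSun3 floor (edgeR log2 fold change 10.84 ± 0.97, SE, adjusted p = 0.000337). The other 8 genes with reads had at most 42.0 RPM in the NSun6 mean.

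A list of other RNA polymerase III transcripts, which holds no tRNA, had at most 714 RPM in the NSun6 mean and 343 RPM in the NSun3 mean of any gene, both in RMRP. Of 21 listed, 14 were found in the annotation under these names, 7 had reads and 2 were tested. Of these 1 was called higher in NSun6, beside 75.6% of all genes and clusters, which with 2 genes says nothing of the list. RN7SK, the 7SK RNA that holds back a transcription elongation factor, had 126, 144 and 122 NSun6 reads and 3, 4 and 0 NSun3 reads. It was called higher in NSun6 (365 ± 50.1 against 32.3 ± 38.9 RPM, SD, n = 3, edgeR log2 fold change 1.88 ± 0.66, SE, adjusted p = 0.0271). The call was lost without NSun6 replicate 1 (log2 fold change 2.18, adjusted p = 0.0510), without NSun6 replicate 2 (2.31, 0.0508) and with the replicate block (2.26, 0.240). It held in the other 9 of 12 alternatives (edgeR and DESeq2), and the log2 fold change over the 12 ran from 1.76 to 4.11. RMRP, the RNA of RNase MRP, had 234, 280 and 251 NSun6 reads and 11, 0 and 45 NSun3 reads, or 714 ± 112 against 343 ± 527 RPM (SD, n = 3). Its log2 fold change had no steady sign. It was -0.52 ± 1.14 in edgeR with TMM (SE, adjusted p = 0.671), against the order of the RPM means, and positive in 7 of 12 alternatives, among them RLE size factors (1.77), DESeq2 (1.72) and edgeR without the library labelled NSun3 replicate 3 (2.67 ± 1.02, adjusted p = 0.0526). Without a filter on low counts edgeR called it higher in NSun6 (2.04, adjusted p = 0.00134). Many genes of this list have near-identical copies whose reads the alignment drops, so their counts of 0 are not levels.

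By the pattern over the 6 libraries, the genes most like VTRNA1-3 were MET, CAPRIN1, WDR82, RNF4 and RTN4. Pearson's r of log2(RPM + 1) with VTRNA1-3 was 0.999 for each, over 6 libraries that share enzyme and depth. All 5 had no NSun3 read, with NSun6 values such as 139, 96.2 and 111 RPM for MET. Of 1732 genes compared, 1422 had r over 0.9, so the likeness amounts to reads with NSun6 and few or none with NSun3.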

How the data were processed

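miCLIP reads were mapped in 6 HEK293 libraries and bisulfite reads in poly(A) RNA of the same line. The authors collapsed reads with identical random barcodes, trimmed adapters, kept reads of at least 18 nt, aligned them to hg19 with bowtie (1 mismatch, single best place). The values they deposited are whole counts of read starts at each base. The files have no strand column. Each lists the chromosomes in 2 passes, and the first was taken as plus, an inference under which 97.0% to 97.4% of NSun6 positions and 63.0% to 82.0% of NSun3 positions in exons matched the exon's strand. For the bisulfite reads the deposited table gives, for each cytosine, its methylated and its unmethylated read count and a percent, in 1 set of columns. Whether it pools both samples is not given in the sources used here. Its positions counted from 0, since 100% of 15234 listed positions were C or G when shifted by 1 base.

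Each base was assigned to a vault RNA window first, then to a gene on its strand, otherwise to a cluster of reads with gaps of at most 100 nt. The 4 genes, the lists and the stretches of bases were chosen with earlier results of these data known. Named are all 4 genes, the cytosines over 50 RPM in at least 2 of 3 libraries, an 11-gene partner list, a 21-gene RNA polymerase III list and the 5 genes of closest pattern. Counts were tested with edgeR 4.0.16 (quasi-likelihood, TMM, filterByExpr, Benjamini-Hochberg adjusted p threshold 0.05), without the replicate number as a term. The fit was also run on simulated counts in which as many features were raised with NSun3 as with NSun6. Calls in these data lay mostly with NSun6, so that run says little of them. SE was taken as the absolute log2 fold change over the root of F. Alternatives were DESeq2 1.42.0, other size factors, no filter, the replicate block, no mtDNA, other assignments of reads and leaving out each library. Sequences were aligned with MAFFT 7.526 and folded with RNAfold 2.7.2, and exact permutation tests and exact (Clopper-Pearson) 95% intervals came from scipy 1.17.1. Replicates of an enzyme differed beyond sampling noise in all pairs (chi-square per degree of freedom 4.61 to 34.7).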

Additional observations from a re-analysis of the deposited data

Results flagged for a closer look

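A further place related to the vault RNAs, the pseudogene VTRNA3-1P on chrX:53489150-53489251, plus strand (GRCh37, 102 nt), was looked at outside the 4 genes because it held NSun6 reads while the NSun3 libraries held none. Its window had 34, 59 and 50 reads in NSun6 replicates 1, 2 and 3, a mean of 132 ± 29.8 RPM (SD, n = 3), above the limit that a count of 0 allows. All of them began at its base 0 (26, 50 and 38 reads) or base -1 (8, 9 and 12 reads), just before the annotated start. It holds CTCCA at the aligned place, and no read began after the first C there. Over 102 aligned columns it was 83.3% identical to VTRNA1-1 and 71.6% to VTRNA1-3. Its bases 1 to 29 are the same as those of VTRNA1-1, VTRNA1-2 and VTRNA1-3. Short reads from its base 0 or -1 are therefore told from the 5′ ends of these genes only by the bases before base 1. Whether the reads came from the pseudogene was not tested.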

How the results depend on the processing

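Both vault RNA genes tested stayed called higher in NSun6 in all 12 alternatives run for each. The log2 fold change ran from 4.06 to 6.32 for VTRNA1-3 and from 9.60 to 11.45 for VTRNA1-1, with adjusted p of at most 0.0284. Without a filter VTRNA1-2 was called too, and 3 genes were. RLE size factors in edgeR moved the median log2 fold change of all genes from 7.05 to 7.38, and DESeq2 itself put it at 5.67. For cytosines 28 calls became 58 of 61 tested when the truncation positions themselves were tested, which are more features for the same reads. Without a filter 39 of 79 were called, and the other alternatives gave 24 to 35 calls of 26 to 35 tested. None was lower in NSun6, a call that was not open to sites without an NSun3 read. For these alternatives the share called over all genes or all cytosines is not given, so their counts are not set against it. An assignment to the cytosine nearest the base before the read, chosen after seeing the data, gave 26 of 28. Of 366 comparisons for 29 single cytosines, 12 lost the call, at 140105767 and 140105770, and 6 gained it, at 140105815. High-confidence sites numbered 40 over 20 RPM, 27 over 100 RPM and 30 when only cytosines within 1 nt counted, and 30 to 33 on leaving out a library. The share at base 78 turned direction without NSun3 replicate 2, the difference running from -17.3 to 28.5 percentage points when a library was left out. No vault RNA cytosine had over 10 or over 20 bisulfite reads, so those limits gave no value. A level of at least 10%, or any coverage, left 0 methylated.

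Whether the replicate numbers pair the samples could not be told from the correlation of deviations, which was near 0 in every pair of libraries. Between same-numbered libraries it was 0.0465, 0.0902 and 0.00836, and between the others -0.0711 to 0.0207. NSun3 replicates 1 and 2 correlated most with the NSun6 library of the same number. The library labelled NSun3 replicate 3 correlated more with NSun6 replicate 1 (0.0207). With the replicate block 2 genes were called, and 29 cytosines in place of 28, the site at 140105815 being gained. Depth limits the NSun3 side: a count of 0 allows up to 63.4 RPM in its smallest library.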
